A study of Homo sapiens with 15 samples.

Results

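The RecQ helicases BLM, WRN, RECQL, RECQL4 and RECQL5, the nuclease-helicase DNA2, and TOP3A, RMI1 and RMI2, which join BLM in the complex called the dissolvasome, were followed in androgen-stimulated LNCaP cells with and without the antiandrogen enzalutamide. The genes were taken by their symbols from the expression table, and all 9 of them were among its 17272 rows and passed the filter on low values. LNCaP is an established androgen-sensitive human prostate cancer cell line. The cells were starved of androgen for 2 days in medium with charcoal-stripped serum and were then given the synthetic androgen R1881 at 1 nM. In 10 libraries R1881 was combined with the vehicle DMSO, a group called R1881 here, and in 5 libraries it was combined with enzalutamide at 2 µM, a group called R1881 + enzalutamide. RNA was taken 22 h after the treatment in both groups, so that every library, the controls included, came from androgen-stimulated cells of 1 line, and no library without R1881 was analysed here.

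RecQ helicases unwind DNA, and their best known substrates are replication forks in trouble, recombination intermediates and resected break ends. BLM is lost in Bloom syndrome, WRN in Werner syndrome and RECQL4 in Rothmund-Thomson syndrome. In the dissolvasome BLM migrates paired Holliday junctions towards each other, the topoisomerase TOP3A separates the strands, and RMI1 and RMI2 are OB-fold scaffold proteins without a catalytic activity of their own. DNA2 cuts the single strands that BLM or WRN unwinds during long-range resection of a double-strand break.

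The libraries held between 15830745 and 25416052 reads, and levels are given as deposited, in units that the authors call CPM, read counts scaled by a factor for each library whose rule is not stated. The treatment was visible in the androgen-induced genes, since KLK2 was at 463 ± 69.2 CPM (SD, n = 10) with R1881 and at 15.2 ± 1.48 CPM (SD, n = 5) with R1881 + enzalutamide, and TMPRSS2 and FKBP5 did not overlap between the groups either. All 9 LNCaP markers examined were in the table, with a sum of 7906 to 9192 CPM with R1881 and 3673 to 3798 CPM with R1881 + enzalutamide. None of 6 immune markers had a row, 1 of 4 endothelial markers had one (VWF, at 2.08 to 2.84 and 2.84 to 3.35 CPM in the groups), and 3 of 6 fibroblast markers had one (COL1A1, COL3A1 and LUM), with a sum of 6.36 to 10.5 CPM with R1881 and 21.2 to 26.7 CPM with R1881 + enzalutamide. The R1881 libraries carry the numbers 51 to 55 and 71 to 75 in their labels and the R1881 + enzalutamide libraries the numbers 81 to 85. What the numbers stand for is not given. No number series holds both treatments, so a difference between treatments and one between number series cannot be told apart. In R1881 replicate 6 (library 73) and R1881 + enzalutamide replicate 2 (library 83) the distance of genes from the mean of their group tracked exon GC content most closely (Spearman's rho of 0.724 and 0.703 across 14621 genes, which are not independent replicates). Other libraries tracked it too, with rho of 0.559 in R1881 library 74 and −0.535, −0.625 and −0.557 in R1881 libraries 51, 52 and 53. In R1881 + enzalutamide libraries 82 and 85 rho was −0.48 and −0.482. Leaving out libraries 73 and 83 therefore does not remove the trend. Results that touch GC-rich or AT-rich genes are given with that trend removed where it moved them.

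The sequences just before the start sites of BLM, which fell most, of TOP3A and RMI1, whose responses differed although their proteins sit in 1 complex, and of RECQL5, which rose, are shown first. RefSeq (GRCh38.p14) promoter windows of 5 of the 9 genes were examined (BLM, RECQL, RECQL5, RMI1 and TOP3A). Those of WRN, RECQL4, RMI2 and DNA2 were not, which does not mean that these genes lack an annotated window. Each sequence below holds the 250 bases before an annotated start, 5′ to 3′ on the gene's strand. Capitals mark matches on either strand to the CCAAT box, CCAAT. The BLM window lies at chr15:90717096-90717345 on the plus strand, the TOP3A window at chr17:18314995-18315244 on the minus strand, the upstream RMI1 window at chr9:83980109-83980358 on the plus strand and the RECQL5 window at chr17:75667155-75667404 on the minus strand.
BLM: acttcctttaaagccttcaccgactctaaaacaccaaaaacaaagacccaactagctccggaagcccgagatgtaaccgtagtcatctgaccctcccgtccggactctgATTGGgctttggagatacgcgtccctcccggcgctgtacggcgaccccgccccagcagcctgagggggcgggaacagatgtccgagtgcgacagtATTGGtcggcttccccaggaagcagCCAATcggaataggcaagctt
TOP3A: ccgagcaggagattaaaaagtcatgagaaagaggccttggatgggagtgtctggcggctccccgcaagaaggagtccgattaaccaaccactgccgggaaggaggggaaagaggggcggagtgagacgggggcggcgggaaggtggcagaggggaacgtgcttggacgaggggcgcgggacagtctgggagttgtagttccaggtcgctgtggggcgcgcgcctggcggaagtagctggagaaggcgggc
RMI1: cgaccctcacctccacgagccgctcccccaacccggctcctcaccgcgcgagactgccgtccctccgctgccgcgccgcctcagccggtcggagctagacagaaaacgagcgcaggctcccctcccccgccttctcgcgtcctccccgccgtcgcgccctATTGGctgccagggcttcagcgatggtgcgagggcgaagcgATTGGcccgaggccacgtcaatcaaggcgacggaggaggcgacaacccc
RECQL5: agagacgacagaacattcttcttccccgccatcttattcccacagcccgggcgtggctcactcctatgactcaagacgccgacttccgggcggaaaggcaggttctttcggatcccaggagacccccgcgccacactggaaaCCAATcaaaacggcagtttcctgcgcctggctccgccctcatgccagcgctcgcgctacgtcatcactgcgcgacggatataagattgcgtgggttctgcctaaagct
The BLM window held 3 CCAAT boxes, ending 137, 42 and 17 bases before the start. The upstream RMI1 window held 2, the RECQL5 window 1 and the TOP3A window none. The window before the downstream RMI1 start, not printed here, held no CCAAT box either, and the RECQL window held 5. At least 1 CCAAT box was found in 32% of 35116 promoter windows of the same length. The CHR element (TTTGAA), in 13.3% of all windows, was in none of the 6 windows of the 5 genes. An E2F-type site, searched as TTTCCCGC, TTTCGCGC, TTTGCCGC or TTTGGCGC on both strands and found in 2.79% of all windows, matched once, 32 to 25 bases before the downstream start of RMI1. None of the 4 searched motif types overlapped another in these windows, and the palindromic androgen response element, found in 1 window of the whole table, was not in them. These matches describe the letters only.

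Expression of the RecQ and dissolvasome genes was mostly lower with enzalutamide. On the scale of log2(CPM + 0.5), 7 of the 9 genes were lower (BLM, DNA2, TOP3A, RECQL4, RMI2, RECQL and WRN), RECQL5 was higher and RMI1 did not pass the test (limma, adjusted p under 0.05 over 17046 genes). Many genes responded in these cells, since 32.7% of all tested genes were lower and 29.8% higher by the same rule, 62.5% in all, and the count of 7 of 9 has to be read against that share. Of all called genes 52.3% were lower, or 39.2% with equal library totals. For 5 genes, BLM, DNA2, TOP3A, RMI2 and RECQL, the highest value with R1881 + enzalutamide was below the lowest with R1881, which held for 20.1% of all tested genes. Of the 9 genes only BLM fell at least 2-fold, which 4.19% of all tested genes did. The median log2 fold change was −0.58 over the 9 genes and −0.01 over all tested genes. In bulk RNA, fewer cells of a type and less RNA per cell cannot be told apart.

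**Figure D1:**
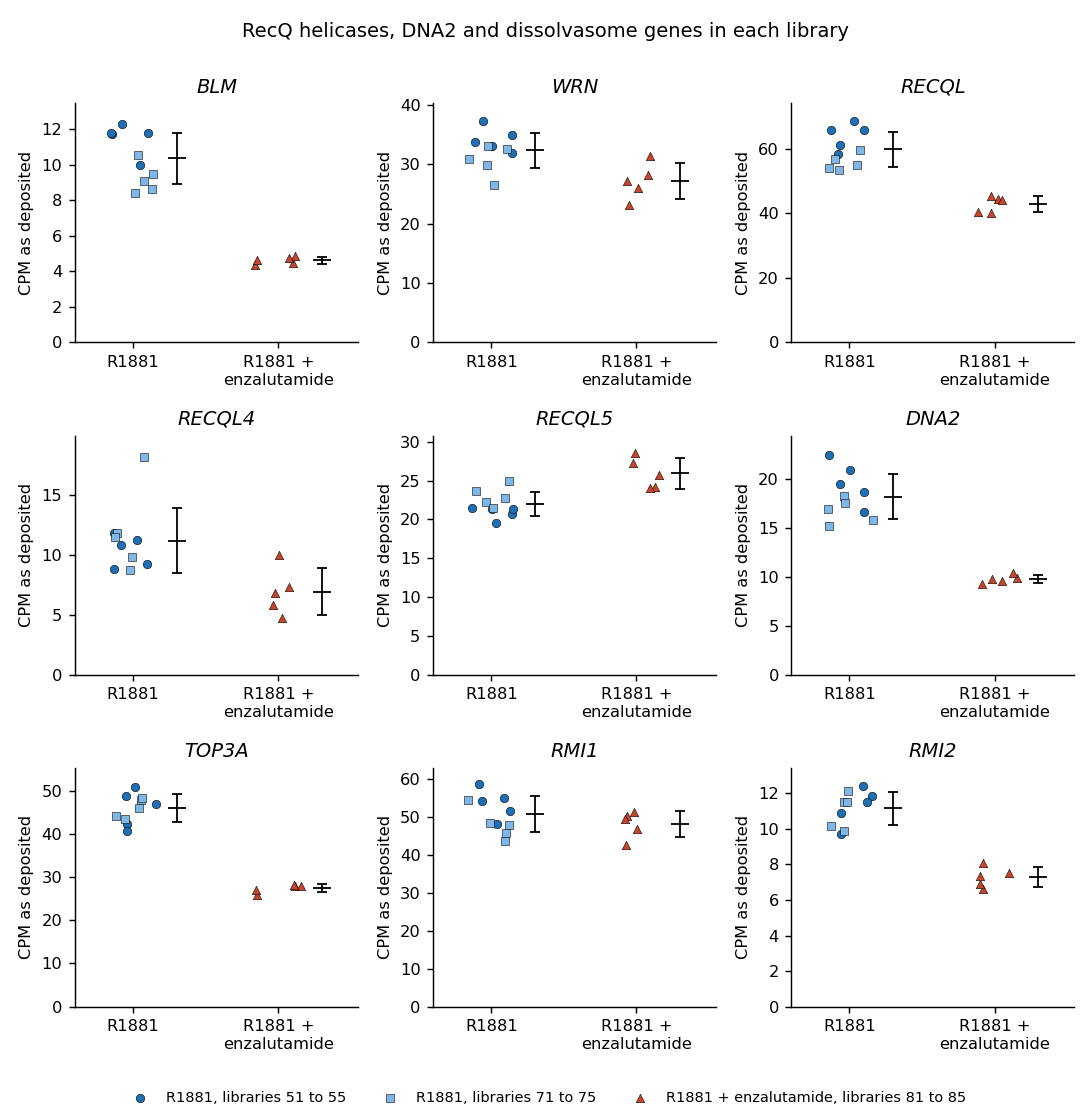
Level of each of the 9 genes in each library, in CPM, with a panel per gene and a vertical axis that starts at 0. Points are single libraries, separated into the R1881 libraries 51 to 55, the R1881 libraries 71 to 75 and the 5 R1881 + enzalutamide libraries, and the lines beside them are the mean and SD of each group. BLM, RECQL, TOP3A, RMI2 and DNA2 separate completely, with BLM between 8.42 and 12.3 CPM with R1881 and between 4.37 and 4.87 CPM with R1881 + enzalutamide.

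BLM (chromosome 15, 90717346 to 90816166, plus strand, 22 exons in the canonical transcript; positions here and below are from GENCODE v44 on GRCh38) encodes the helicase subunit of the dissolvasome. Its level ran from 8.42 over a median of 10.3 to 12.3 CPM in the R1881 libraries, and was 4.37, 4.47, 4.67, 4.74 and 4.87 CPM in the R1881 + enzalutamide libraries. The groups were far apart and the 5 enzalutamide values close together, with 94 to 279 reads on BLM per library. The mean was 10.4 ± 1.45 CPM (SD, n = 10) under R1881 and 4.62 ± 0.202 CPM (SD, n = 5) under enzalutamide, with a log2 fold change of −1.07 (SE 0.088, limma adjusted p = 9.562e-10), and only 3.65% of tested genes had a lower log2 fold change. The fall of the median was 54.5% against all R1881 libraries, 60.3% against libraries 51 to 55 alone and 48.8% against libraries 71 to 75 alone.

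WRN (chromosome 8, 31033788 to 31176138, plus strand, 35 exons) is the RecQ helicase that also carries an exonuclease domain. WRN lay between 26.4 and 37.2 CPM with R1881, with a median of 32.8 CPM, and at 23.2, 26.0, 27.2, 28.1 and 31.3 CPM with R1881 + enzalutamide. The groups overlapped, with 7 of the 10 R1881 libraries above the highest enzalutamide library and 2 of the 5 enzalutamide libraries below the lowest R1881 library. The log2 fold change was −0.25 (SE 0.070, limma adjusted p = 0.00407). It was −0.17 (adjusted p = 0.0799) against libraries 71 to 75 alone, so the call for WRN did not hold there.

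RECQL (chromosome 12, 21468910 to 21501669, minus strand, 15 exons), the helicase also known as RECQ1, was at 53.4 to 68.4 CPM with R1881, with a median of 58.9 CPM. With R1881 + enzalutamide it was at 40.1, 40.5, 43.97, 44.5 and 45.3 CPM, below every R1881 library. Its log2 fold change was −0.47 (SE 0.058, limma adjusted p = 4.532e-07). Of its exon bases, 41.47% are shared with PYROXD1 on the opposite strand, and whether reads were counted by strand is not given. PYROXD1 itself was at 19.0 ± 1.21 CPM (SD, n = 10) with R1881 and 20.7 ± 1.90 CPM (SD, n = 5) with R1881 + enzalutamide (log2 fold change 0.12, limma adjusted p = 0.0974).

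RECQL4 (chromosome 8, 144511288 to 144517845, minus strand, 21 exons) takes part in the start of DNA replication as well as in repair. It was at 8.73 to 18.2 CPM with R1881, with a median of 11.0 CPM, and at 4.72, 5.82, 6.82, 7.29 and 10.0 CPM with R1881 + enzalutamide. One R1881 library, replicate 6, stood above the other 9, and the highest enzalutamide value, in replicate 2, reached into the R1881 range, whereas the other 4 enzalutamide values lay below it. The log2 fold change was −0.67 (SE 0.15, limma adjusted p = 0.000643). RECQL4 had the most GC-rich exons of the 9 genes (65.2% GC), and both of those libraries are the ones that followed GC content most closely. With the GC trend removed, the SD of its log2 level went from 0.296 to 0.142 among the R1881 libraries and from 0.375 to 0.226 among the R1881 + enzalutamide libraries, and its log2 fold change was −0.65. Without those libraries it was −0.72.

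RECQL5 (chromosome 17, 75626845 to 75667189, minus strand, 20 exons), a RecQ helicase that binds RNA polymerase II, went the other way. It was at 19.6 to 24.9 CPM with R1881, with a median of 21.5 CPM, and at 24.0, 24.1, 25.7, 27.2 and 28.6 CPM with R1881 + enzalutamide. Of the 10 R1881 libraries 9 were below the lowest enzalutamide library, and 3 of the 5 enzalutamide libraries were above the highest R1881 library. The log2 fold change was 0.23 (SE 0.057, limma adjusted p = 0.00126), and it was called in all 30 alternative settings (0.17 to 0.33). SMIM5, on the opposite strand, shares 17.34% of the RECQL5 exon bases and had no row in the table.

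The partners of BLM in the dissolvasome did not move together. TOP3A (chromosome 17, 18271428 to 18315007, minus strand, 19 exons), the type IA topoisomerase that passes strands through each other and also serves mitochondrial DNA, was at 40.7 to 50.9 CPM with R1881, with a median of 46.5 CPM. With R1881 + enzalutamide its values were 25.8, 27.1, 27.9, 28.0 and 28.2 CPM, below every R1881 library. Its log2 fold change was −0.73 (SE 0.050, limma adjusted p = 4.920e-11), the smallest adjusted p among the 9 genes. RMI2 (chromosome 16, 11249619 to 11381662, plus strand, 2 exons), the smaller scaffold subunit, was at 9.73 to 12.4 CPM with R1881, with a median of 11.5 CPM, and at 6.61, 6.91, 7.32, 7.49 and 8.10 CPM with R1881 + enzalutamide. These groups did not overlap either, and the log2 fold change was −0.58 (SE 0.069, limma adjusted p = 2.711e-07).

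RMI1 (chromosome 9, 83980798 to 84004074, plus strand, 3 exons), which binds TOP3A directly, did not pass the test. It was at 43.7 to 58.7 CPM with R1881, with a median of 50.0 CPM, and at 42.6, 46.9, 49.6, 50.4 and 51.4 CPM with R1881 + enzalutamide, so that the groups overlapped over most of their range. The log2 fold change was −0.07 (SE 0.063, 95% interval −0.20 to 0.05, limma adjusted p = 0.321). RMI1 had the most AT-rich exons of the 9 genes (35.5% GC), and with the GC trend removed it was called lower, at −0.16 (limma adjusted p = 0.000126). It was also called against libraries 51 to 55 alone (−0.15, limma adjusted p = 0.0327), while with equal library totals it was at 0.019 (limma adjusted p = 0.793).

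DNA2 (chromosome 10, 68414064 to 68472121, minus strand, 21 exons), the nuclease of long-range resection, was at 15.1 to 22.4 CPM with R1881, with a median of 17.9 CPM. With R1881 + enzalutamide it was at 9.21, 9.54, 9.73, 9.84 and 10.4 CPM, and no library of one group reached the other. The log2 fold change was −0.86 (SE 0.077, limma adjusted p = 3.984e-09), second to BLM in size among the 9 genes. The median fell by 45.5% against all R1881 libraries, by 50.1% against libraries 51 to 55 and by 42.3% against libraries 71 to 75. DNA2 is one of the genes that the study itself singled out from these libraries, so its value is not independent evidence of its direction.

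**Figure D2:**
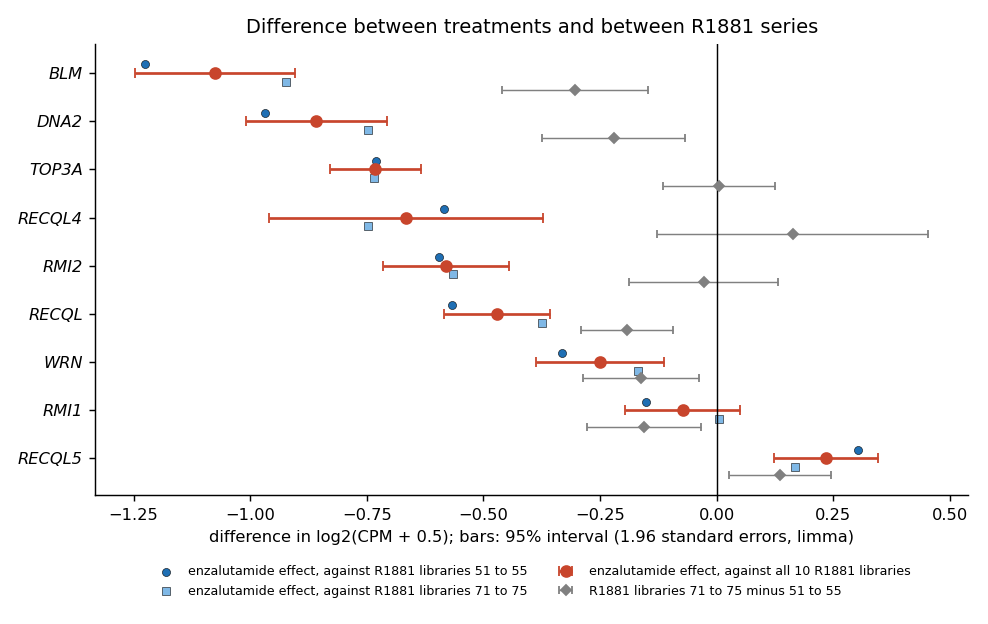
Log2 fold change of each of the 9 genes, R1881 + enzalutamide against all R1881 libraries, with its 95% interval (large circles), the same against libraries 51 to 55 or 71 to 75 alone (small symbols), and the difference between these sets of R1881 libraries (diamonds). BLM (−1.07), DNA2 (−0.86) and TOP3A (−0.73) lie farthest below 0 and RECQL5 (0.23) lies above 0 in the treatment comparison.

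Set on a common scale of CPM per kilobase of annotated exon, the 9 genes differed widely in level. The length is the union of all annotated exons of a gene, which can differ from that of the transcripts present, so the order is approximate. With R1881 RECQL (15.8 ± 1.41 CPM per kilobase, SD, n = 10) and RMI1 (14.9 ± 1.39) led with overlapping ranges, followed at a distance by TOP3A (5.59 ± 0.393). WRN (3.94 ± 0.357), DNA2 (3.69 ± 0.460), RMI2 (3.09 ± 0.260), RECQL5 (2.51 ± 0.174) and RECQL4 (2.48 ± 0.606) followed, each overlapping with its neighbour in this order, and BLM was lowest at 1.32 ± 0.184. With R1881 + enzalutamide the order began with RMI1 (14.1 ± 1.03 CPM per kilobase, SD, n = 5), then apart from it RECQL (11.3 ± 0.631) and, apart again, TOP3A (3.33 ± 0.119), WRN (3.30 ± 0.365) and RECQL5 (2.96 ± 0.228). RECQL5 thus stood above RMI2 (2.02 ± 0.158) and DNA2 (1.98 ± 0.0851), which it had followed with R1881, and RECQL4 came next at 1.53 ± 0.439. BLM stayed lowest at 0.587 ± 0.0256.

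**Figure D3:**
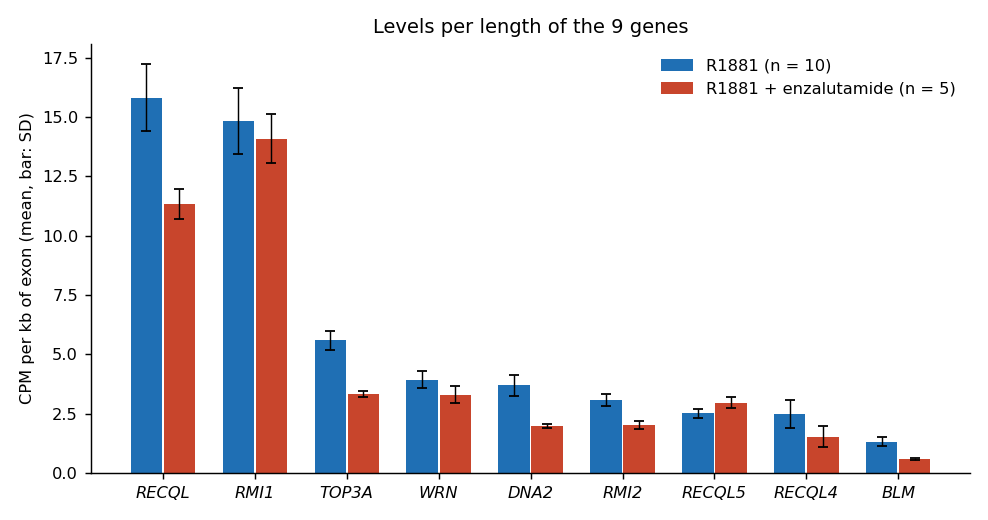
Level of each gene in CPM per kilobase of annotated exon, ordered by the R1881 mean, with bars for the group means (n = 10 and 5) and error bars for the SD. RECQL and RMI1 stand on top in both groups and BLM at the bottom, at 1.32 with R1881 and 0.587 with R1881 + enzalutamide.

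Since the dissolvasome genes changed unequally, the balance between their transcripts differed between the groups. Within a library, the ratio of BLM to RMI1 per kilobase was 0.0885 ± 0.00701 (SD, n = 10) with R1881 and 0.0418 ± 0.00269 (SD, n = 5) with R1881 + enzalutamide. The ratio of TOP3A to RMI1 was 0.380 ± 0.0509 and 0.238 ± 0.0232, and that of RMI2 to RMI1 was 0.209 ± 0.0162 and 0.143 ± 0.00942. RMI1 therefore made up 59.7% of the summed per-kilobase level of the 4 complex genes with R1881 and 70.3% with R1881 + enzalutamide, whereas BLM made up 5.28% and 2.94%. The share of TOP3A was 22.6% and 16.7%, and that of RMI2 was 12.4% and 10.1%. These shares rest on the length of all annotated exons and so are only approximate proportions of transcripts. Protein was not measured.

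Each of the 36 pairs among the 9 genes was tested by the difference of its log2 ratio between the groups, with an exact two-sided permutation test over 3003 regroupings and adjustment over the 36 pairs. The ratio differed in 27 pairs, and in 16 of them the groups did not overlap. The share among pairs of other genes was not computed, and with 62.5% of all tested genes called in 1 direction or the other these counts say nothing particular to the 9 genes. The ratio of BLM to RMI1 fell by 1.00, that of BLM to RMI2 by 0.49 and that of TOP3A to RMI1 by 0.66 on the log2 scale, each with an exact p of 0.000333, the smallest that the regroupings can give, and an adjusted p of 0.000749. BLM also fell more than its nuclease partner DNA2 (−0.22, exact adjusted p = 0.00856) and more than TOP3A (−0.34, exact adjusted p = 0.0115), though neither held against libraries 71 to 75 alone (−0.18 for DNA2, exact adjusted p = 0.0571, and −0.19 for TOP3A, exact adjusted p = 0.0519). WRN, the other helicase that works with DNA2, lost less than DNA2 did, and the ratio of DNA2 to WRN per kilobase went from 0.936 ± 0.0601 (SD, n = 10) to 0.604 ± 0.0681 (SD, n = 5). The log2 ratio of WRN to DNA2 was higher by 0.61 with R1881 + enzalutamide (exact adjusted p = 0.000749).

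The largest shift of a ratio was between the RecQ genes that moved in opposite directions, BLM and RECQL5 (−1.31, exact adjusted p = 0.000749). For TOP3A and RMI2 no difference in response was detected (−0.15, 95% interval −0.35 to 0.05, exact adjusted p = 0.155), nor for TOP3A and DNA2 (0.13, 95% interval −0.10 to 0.35, exact adjusted p = 0.295), although the latter passed with the GC trend removed (0.16, exact adjusted p = 0.0442). Of the 9 pairs that did not pass, 6 included RECQL4, whose ratios had wide intervals, for example −0.31 to 0.44 for RECQL4 to TOP3A. With the GC trend removed, the ratios of BLM to RECQL4 (−0.42, exact adjusted p = 0.00272) and of WRN to RECQL4 (0.37, exact adjusted p = 0.00432) passed. BLM to RECQL4 also passed without R1881 replicate 6 (−0.52, exact adjusted p = 0.0159), and WRN to RECQL4 without R1881 + enzalutamide replicate 2 (0.56, exact adjusted p = 0.0466).

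**Figure D4:**
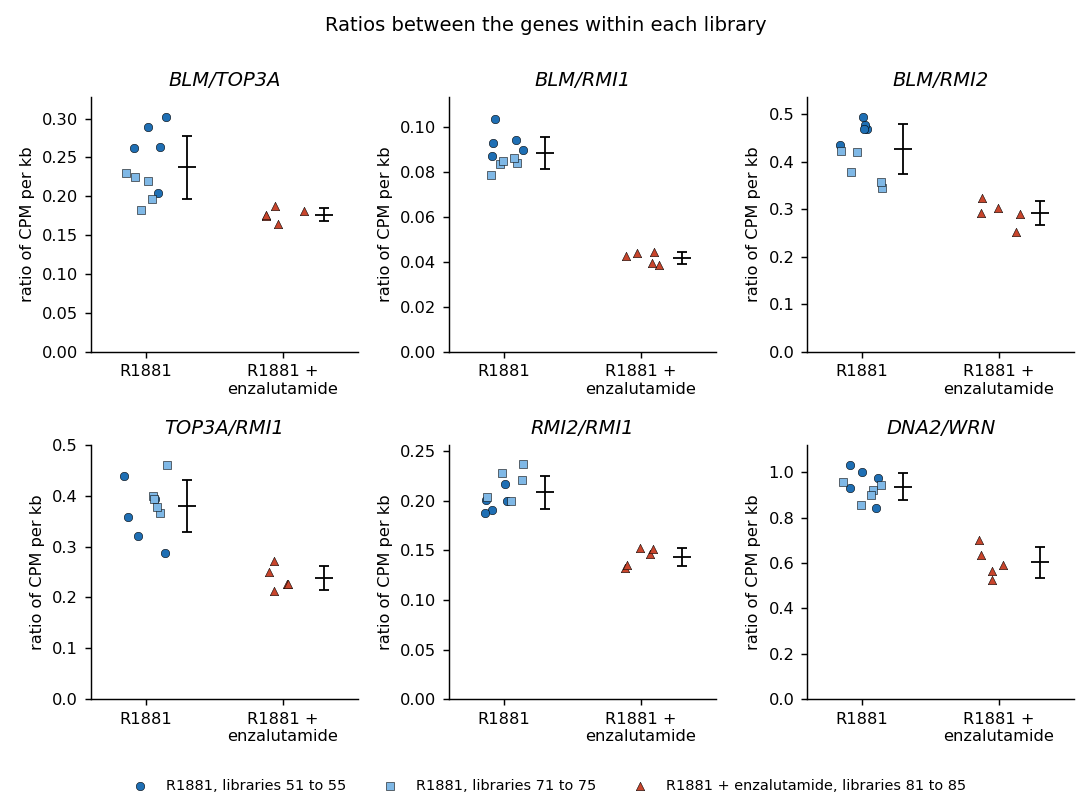
Ratios of per-kilobase levels within single libraries for the dissolvasome genes and for DNA2 against WRN, by group, with 1 point per library and the mean and SD beside them. The ratio of BLM to RMI1 lies between 0.0786 and 0.104 in the R1881 libraries and between 0.0385 and 0.0446 in the R1881 + enzalutamide libraries, while that of BLM to TOP3A overlaps between the groups.

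The R1881 libraries numbered 71 to 75 and 51 to 55 were compared with each other in the same way. None of the 9 genes passed (limma), where 3.17% of all tested genes did (2.35% lower and 0.821% higher in libraries 71 to 75). These counts rested on single libraries, since the 541 genes called became 55 without R1881 replicate 9 and 964 without R1881 replicate 3, and 2 of the 9 genes passed without R1881 replicate 1 or 3. At an unadjusted p under 0.05 there were 6 of the 9, where 23.9% of all tested genes were, and edgeR on the recovered reads called 1. RECQL (−0.19, SE 0.050, limma adjusted p = 0.0503) and BLM (−0.30, SE 0.080, limma adjusted p = 0.0506) came nearest, both lower in libraries 71 to 75. With the GC trend removed, RECQL was at −0.10 (limma adjusted p = 0.108) and BLM at −0.20 (limma adjusted p = 0.112). The median over the 9 genes was −0.16 and over all tested genes −0.01. TOP3A had the same mean in both sets to within 0.0046 on the log2 scale (SE 0.061).

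Genes that work beside the RecQ helicases were taken as 4 lists, of which 1 gene, RTEL1, had no row in the table. In end resection 3 of 10 genes were lower and 1 higher, with a median log2 fold change of −0.08, where 32.7% of all tested genes were lower and 29.8% higher, shares against which the counts of all 4 lists have to be read. With the GC trend removed, or against libraries 51 to 55 alone, 7 of the 10 were called instead of 4. EXO1, the other long-range resection nuclease, averaged 17.1 CPM under R1881, with an SD of 2.35 over the 10 libraries, and 7.06 CPM under enzalutamide, with an SD of 0.380 over the 5. Its log2 fold change was −1.21 (SE 0.087, limma adjusted p = 1.144e-10). The single-strand binding subunits RPA3 (−0.30) and RPA2 (−0.24) were also lower and the exonuclease EXD2 (0.19) was higher. The genes of the initial cut did not pass the main test, with MRE11 at −0.14 (limma adjusted p = 0.0624), RAD50 at −0.04, NBN at −0.04 and RBBP8, which encodes CtIP, at −0.08. Since 7 of the 10 genes were called in the settings above, at least 1 of these was called there, and which is not given here.

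Among the nucleases that cut joint molecules instead of dissolving them, 3 of 7 genes were lower and 1 higher, with a median of −0.16. EME1 averaged 11.6 CPM under R1881 (SD 1.18, n = 10) and 6.03 CPM under enzalutamide (SD 1.15, n = 5), which is −0.91 on the log2 scale (limma adjusted p = 5.765e-08), whereas EME2, the alternative partner of MUS81, rose by 0.41 on the log2 scale (limma adjusted p = 0.00178). MUS81 (0.11), GEN1 (−0.16) and the scaffold SLX4 (−0.03) did not pass the test. SLX1A (−0.60) and SLX1B (−0.63) were called lower, but they are near-identical copies whose reads may be split between them, and both values are uncertain.

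Among the strand exchange genes 10 of 15 were lower and 2 higher, with a median of −0.50. The translocases RAD54B (11.4 to 14.4 CPM with R1881 and 4.19 to 5.08 CPM with R1881 + enzalutamide, log2 fold change −1.40) and RAD54L (23.7 to 27.7 and 8.59 to 11.6 CPM, −1.32) were lowest (limma adjusted p = 1.555e-13 and 4.439e-14). RAD52, an annealing protein, rose from a mean of 7.54 CPM (SD 0.698, n = 10) to one of 10.2 CPM (SD 1.01, n = 5; log2 fold change 0.42, limma adjusted p = 5.948e-05), and RAD51B rose by 0.43. The last list held other repair helicases and translocases and also genes that act beside them, among them TOPBP1, RIF1 and RADX. Of its genes 8 of 15 were lower and 5 higher, with a median of −0.29. The mitotic translocase ERCC6L (−1.45) and BRIP1, the FANCJ helicase (−0.93), were lowest there. ZRANB3 (0.35), a fork remodeller, and RADX (0.79), which acts at replication forks and whose row has the symbol CXorf57, were highest, although RADX was near the filter on low values with 0.903 ± 0.198 CPM (SD, n = 10) and 1.91 ± 0.291 CPM (SD, n = 5).

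Genes of the cell cycle moved beside these results. The counts below stand against 32.7% of all tested genes lower and 29.8% higher with R1881 + enzalutamide. Of the 42 genes in the S-phase list of the Seurat package, from which BLM was taken out, 40 were lower and none higher (limma; POLR1B and CHAF1B did not pass, at −0.01 and −0.07), with a median of −0.81, and of 52 genes tested from its G2/M list 51 were lower and 1, ANP32E, was higher, with a median of −0.87. The S-phase score, the mean log2 level of the list minus that of all tested genes, was 1.23 to 1.503 in the R1881 libraries and 0.458 to 0.617 in the R1881 + enzalutamide libraries. The G2/M score was 1.31 to 1.68 and 0.617 to 0.807. Between the R1881 libraries 71 to 75 and 51 to 55, 11 of the S-phase genes and 29 of the G2/M genes were lower as well. Their medians were −0.15 and −0.26. Of all tested genes 2.35% were lower in that comparison, and that count rested on single libraries. Some partner genes, EXO1 and RAD51AP1 among them, are also in the S-phase list. The part of the cell cycle genes in the changes of the RecQ and dissolvasome genes was not tested.

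**Figure D5:**
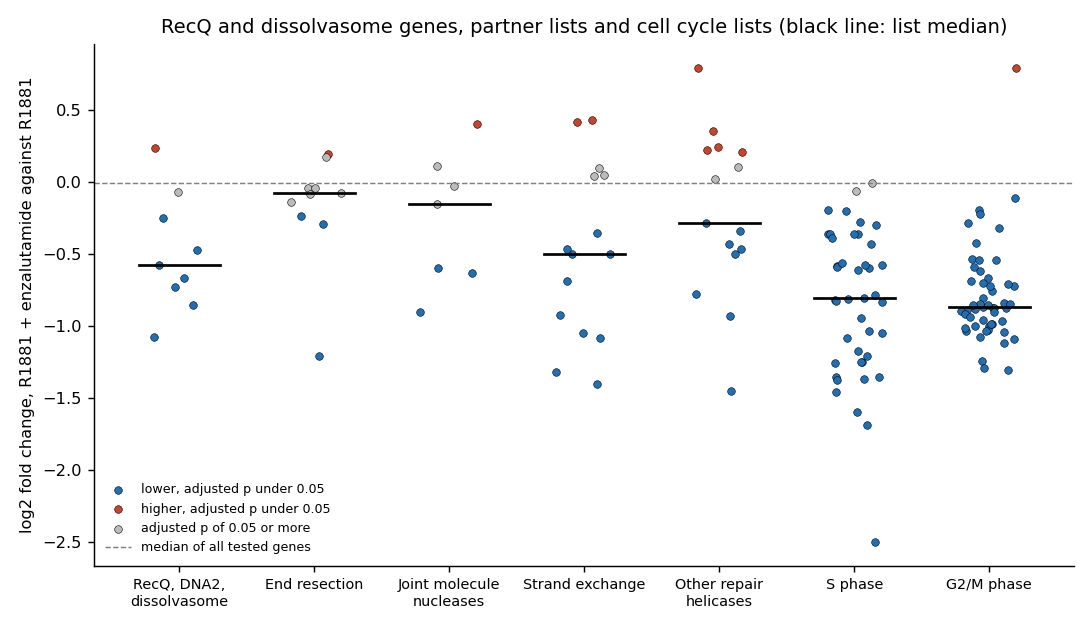
Log2 fold change, R1881 + enzalutamide against R1881, of each gene of the RecQ and dissolvasome group, the 4 partner lists and both cell cycle lists. Each point is a gene, coloured by the limma call, black lines are list medians and the dashed line is the median of all tested genes; the medians run from −0.08 for end resection to −0.87 for G2/M, and the 9 genes lie at −0.58.

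For each gene the 3 genes with the most similar pattern were sought among 12164 genes with a mean of at least 5 CPM, by the root-mean-square difference of centred log2 levels over the 15 libraries. BLM was nearest to FAM103A1 (0.081), FAM83D (0.092) and RP11-37J13.1 (0.098), and DNA2 to FAM72D (0.077), which has near-identical copies, ZNF552 (0.079) and SC5D (0.080). TOP3A was nearest to GBF1 (0.063), FANCG (0.073) and TBL1X (0.078), RMI1 to PEX3 (0.050), ZMYM1 (0.052) and C5orf28 (0.052), and RMI2 to GNAQ (0.072), LINC01296 (0.073) and WHAMM (0.078). WRN had ATP11B and GCC2 among its nearest genes (0.060 each), RECQL to KPNA3 (0.049), NAMPT (0.050) and PDK1 (0.053), and RECQL5 to RPL13A (0.047), CACNB3 (0.054) and TRIM8 (0.056). RECQL4 had the least close neighbours, IGSF8 (0.122), NARFL (0.131) and CCDC57 (0.134). No 2 of the 9 genes were among each other's nearest genes, which says little with only 3 places per gene among 12164. The difference between treatments enters this distance, and BLM (−1.07) and FAM103A1 (−1.10) had nearly the same log2 fold change.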

How the data were processed

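Polyadenylated RNA of LNCaP cells was sequenced in 15 libraries (TruSeq Stranded mRNA, single end). According to the submitters' processing notes, reads were converted with bcl2fastq 2.17, mapped to GRCh38 with STAR and counted with featureCounts. No source used here gives the other versions, the annotation, the strand setting, the gene filter or the scaling. The authors deposited a normalized signal per gene, called CPM in the methods; its column sums ran from 985580 to 1078567, and 100% of values were whole numbers of reads within 0.01 read. Groups follow the labels, since the methods text assigns the group sizes the other way round. The methods call the libraries biological replicates; if they are not separate cultures, p-values cover technical spread. Agreement within sampling noise was found for none of 55 pairs of libraries of a group (chi-square over its degrees of freedom at least 1.63).

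Genes with a mean of at least 0.5 were tested on log2(value + 0.5) with limma 3.58.1 (R 4.3.3; trend, Benjamini-Hochberg); fold changes of low genes are understated on this scale. Single ratios were tested by an exact permutation test. In simulated counts for the treatment comparison (16991 genes), 99 of 100 genes changed 2-fold, 89 of 100 changed 1.5-fold and 8 of 16791 unchanged genes were called. The simulation changed far fewer genes than were called in the data and held no GC trend or number series, so these rates may not carry over. Gene GC content and exon length came from GENCODE v44, which matched 85.7% of rows. Alternatives were the pseudocount, filter, scaling, edgeR 4.0.16 and DESeq2 1.42.0 on recovered reads, replicate blocks, each R1881 number series alone, GC correction and leaving out libraries. Title numbers did not pair libraries (correlation of same-numbered libraries −0.068 to 0.074). Between R1881 and R1881 + enzalutamide libraries with the same last digit of the library number the correlation ran from −0.417 to 0.668, highest for libraries 73 and 83. Named genes are all 9, the 2 lowest and 2 highest called genes of each partner list, the 3 genes nearest in pattern to each, and KLK2, TMPRSS2 and FKBP5; the initial-cut genes, the other nuclease genes, the exceptions in the cell cycle lists and genes that share exon bases were added after their values were seen. A few genes that this rule or the lists hold are not reported here by name. The genes and lists were chosen with earlier results of these data known. Intervals cover the spread between libraries.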

Additional observations from a re-analysis of the deposited data

Results flagged for a closer look

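RECQL4 was at 18.2 CPM in R1881 replicate 6 (library 73), while the other 9 R1881 libraries were at 8.73 to 11.9 CPM. The gap to the next library was 0.669 of the range of the group, above the limit of 0.466 for 10 samples. This was 1 of 22 groups of values examined, and chance alone gives about 1 in 20. The same library had the highest correlation of gene deviations with GC content (Spearman's rho 0.724 across genes). Without it the log2 fold change of RECQL4 was −0.59 (limma adjusted p = 0.00019).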

How the results depend on the processing

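In the treatment comparison the log2 fold changes of BLM, RECQL, RECQL4, RECQL5, TOP3A, RMI2 and DNA2 kept their direction and call in all 30 alternatives, and 6 to 8 of the 9 genes were called lower. WRN was not called against libraries 71 to 75 alone (−0.17). RMI1 changed sign with equal library totals (0.019) and against libraries 71 to 75 alone (0.0043), and was called lower against libraries 51 to 55 alone (−0.15) and with the GC trend removed (−0.16). End resection had 7 genes called in both of the latter settings, against 4. The cause was not tested for any of these. The replicate block on the title number called 10043 genes, against 10660 without it, and changed no call among the 9 genes; a block on the last digit of the library number called 10720. In the pair ratios 20 to 29 of 36 pairs were called, and 25 with the replicate block. The ratio of BLM to DNA2 was not called with the block (−0.22). Ratios near 0 changed sign: RECQL4 to RMI2 against libraries 51 to 55 alone (0.0098) and between −0.25 and 0.034 on leaving out single libraries, RECQL4 to TOP3A against libraries 71 to 75 alone (−0.013) and between −0.062 and 0.19, and RECQL4 to DNA2 against libraries 71 to 75 alone (−4.281e-05). Between the R1881 libraries 71 to 75 and 51 to 55, the count of genes called rested on single libraries, from 541 to 55, 60, 73, 86, 282, 344, 349 and 964 without R1881 replicate 9, 10, 7, 5, 8, 6, 4 and 3 in that order. Leaving out library 73 alone is the same there as leaving out the 2 libraries that followed GC content most closely (344). Of the 9 genes, 1 was called with equal totals and 1 with edgeR, and 0 to 2 on leaving out single libraries (2 without R1881 replicate 1 or 3). There RECQL4 (−0.062) and TOP3A (−0.021) changed sign with the GC trend removed, TOP3A also without library 73 (−0.013), and on leaving out single libraries TOP3A ran from −0.037 to 0.043 and RMI2 from −0.078 to 0.0090. Leaving out libraries 73 and 83 and the GC trend in the pair ratios were chosen after seeing the data.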
